A study of Rattus norvegicus with 8 samples.

Results

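Lcn2, Orm1, Wfdc18, Crisp3 and Chi3l1 encode secreted proteins of innate defence and the acute-phase response. The 5 genes were chosen by symbol for being higher after loss of the RNA-binding protein HuR in primary nucleus pulposus cells of the rat, which fill the soft core of the intervertebral disc. They are 5 of the 13536 genes in the table, and all 5 were among the 11847 that passed a filter on low values, at least 10 normalized counts in at least 4 of the 8 libraries. Because that same comparison chose them, their differences are described here and not tested.

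The HuR-depleted cells, ShHuR, carried a lentiviral short hairpin RNA against HuR (gene Elavl1), in 4 libraries. The control cells, ShCTR, carried a non-target hairpin in the pLKO.1 vector, also in 4 libraries. Both groups were explant-grown cells from Wistar rats, kept in DMEM with 10% serum and held at 1% oxygen for the final 24 h. How many hairpins or animals stand behind the libraries is not given in the sources used here.

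Lipocalin 2, the product of Lcn2, binds the siderophores with which bacteria collect iron. Orosomucoid, the product of Orm1, is a lipocalin-fold glycoprotein that the liver releases into plasma during inflammation. Wfdc18 encodes a small protein with a whey acidic protein (WAP) domain, a fold shared with protease inhibitors, and Crisp3 a cysteine-rich secretory protein of the CAP superfamily. Chi3l1 encodes a chitinase-like lectin without chitinase activity that chondrocytes and synovial cells are known to release. HuR binds AU-rich elements of mRNAs and is known to alter their stability and translation.

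Recovered reads ran from 6797360 to 8038192 in ShHuR libraries and from 9096738 to 12179515 in ShCTR libraries. Values are normalized counts: each library’s gene counts had been divided by a single scaling factor before deposit. Elavl1 (ENSRNOG00000001069), the target of the hairpin, was at 63.8, 6.1, 8.4 and 49.6 normalized counts in ShHuR replicates 1 to 4, against 554.8, 699.3, 582.5 and 644.3 in ShCTR replicates 1 to 4. Libraries that share a replicate number deviated together and are called pairs 1 to 4, although libraries of pairs 2 and 3 also deviated with each other. Across the tested genes the leading principal component held 57.2% of the variance and set both libraries of pair 1 apart from the others. As markers of the labelled cell type, Krt8 averaged 89.7 ± 84.9 and 93.3 ± 76.2 normalized counts and Foxf1 99.6 ± 24.4 and 99.2 ± 26.2 in ShHuR and ShCTR (SD, n = 4 each). Col2a1 did not exceed 21 in any library and Sox9 averaged 20.9 ± 12.3 and 26.2 ± 13.2, while the fibroblast marker Dcn averaged 53399 ± 19835 and 47469 ± 29200 (ShHuR and ShCTR, SD, n = 4 each).

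All 5 genes were higher in ShHuR than in ShCTR in each of the 4 pairs. In the background 22.3% of the tested genes were higher in 4 of 4 pairs. In Lcn2 and Crisp3 all 4 ShHuR values lay above all 4 ShCTR values, which held for 2.52% of the tested genes (3.09% had all 4 ShHuR values below), and in the other 3 genes the groups overlapped. The mean log2 difference, ShHuR minus ShCTR on the log2(normalized count + 1) scale, was between 1.80 for Lcn2 and 3.34 for Crisp3. That scale understates the change of genes with low counts. The median log2 difference of all tested genes was 0.01. In bulk RNA a change in the number of producing cells and a change in the RNA per cell cannot be told apart.

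Lcn2 (ENSRNOG00000013973) had 14862, 22005, 20986 and 20553 normalized counts in ShHuR replicates 1 to 4, against 6106, 2644, 11420 and 5270 in ShCTR replicates 1 to 4. The lowest ShHuR library was above the highest ShCTR library, ShCTR replicate 3. The means were 19602 ± 3218 in ShHuR and 6360 ± 3682 in ShCTR (SD, n = 4 each), a log2 difference of 1.80 with an SD of 0.95 over the pairs. The ShHuR libraries lay within 1.48-fold of each other and the ShCTR libraries within 4.32-fold. The difference was largest in pair 2, at 3.06, where ShCTR was lowest, and smallest in pair 3, at 0.88, where ShCTR was highest.

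Orm1 (ENSRNOG00000007886) had 13.7, 143.4, 332.2 and 183.3 normalized counts in ShHuR replicates 1 to 4, against 1.87, 17.6, 29.2 and 26.9 in ShCTR replicates 1 to 4. Pair 1 was the lowest in both groups, so that ShHuR replicate 1 lay below 3 of the ShCTR libraries although it was above its own partner. The means were 168.1 ± 131.2 in ShHuR and 18.9 ± 12.4 in ShCTR (SD, n = 4 each), with a log2 difference of 2.88. Its SD over the pairs, 0.46, was the smallest of the 5 genes. ShCTR replicate 1 rests on 2 reads and ShHuR replicate 1 on 9, so the 7.32-fold ratio of pair 1 has an exact 95% interval from 1.52 to 69.6, for counting error only.

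Wfdc18 (ENSRNOG00000037097) had 50.1, 2115, 1291 and 613.7 normalized counts in ShHuR replicates 1 to 4, against 14.9, 289.2, 269.4 and 149.7 in ShCTR replicates 1 to 4. As with Orm1, both libraries of pair 1 were the lowest of their groups, and ShHuR replicate 1 was below 3 ShCTR libraries. The means were 1017 ± 890.2 in ShHuR and 180.8 ± 126.6 in ShCTR (SD, n = 4 each), with a log2 difference of 2.21 and an SD of 0.50 over the pairs. Within a group the libraries spanned 42.2-fold in ShHuR and 19.4-fold in ShCTR, both far wider than the 3.36-fold to 7.31-fold ratios within pairs.

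Crisp3 (ENSRNOG00000013496) had 79.0, 478.7, 1940 and 395.0 normalized counts in ShHuR replicates 1 to 4, against 51.4, 27.8, 37.4 and 47.5 in ShCTR replicates 1 to 4. The ShCTR libraries were close together, within 1.85-fold, and the ShHuR libraries spanned 24.5-fold. The means were 723.1 ± 829.1 in ShHuR and 41.0 ± 10.6 in ShCTR (SD, n = 4 each). The log2 difference of 3.34 had an SD of 2.12 over the pairs, with 0.61 in pair 1 and 5.66 in pair 3. Without pair 1 it was 4.25, and without pair 3 it was 2.57. In pair 1 the ratio was 1.54-fold, with an exact 95% interval of 1.03 to 2.29 for counting error. Rodent CRISP genes are close copies of each other, and the sources used here do not say how reads shared between copies were counted, so its count is uncertain.

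Chi3l1 (ENSRNOG00000053272) had 19.8, 492.8, 485.7 and 70.9 normalized counts in ShHuR replicates 1 to 4, against 6.54, 56.4, 105.0 and 3.58 in ShCTR replicates 1 to 4. Replicates 1 and 4 were low and replicates 2 and 3 high in both groups. The means were 267.3 ± 257.2 in ShHuR and 42.9 ± 48.0 in ShCTR (SD, n = 4 each), with a log2 difference of 2.68 and an SD of 1.09 over the pairs. The largest pair difference, 3.97 in pair 4, rests on 70 reads in ShHuR against 4 in ShCTR, a 19.8-fold ratio with an exact 95% interval from 7.39 to 74.6 for counting error.

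**Figure D1:**
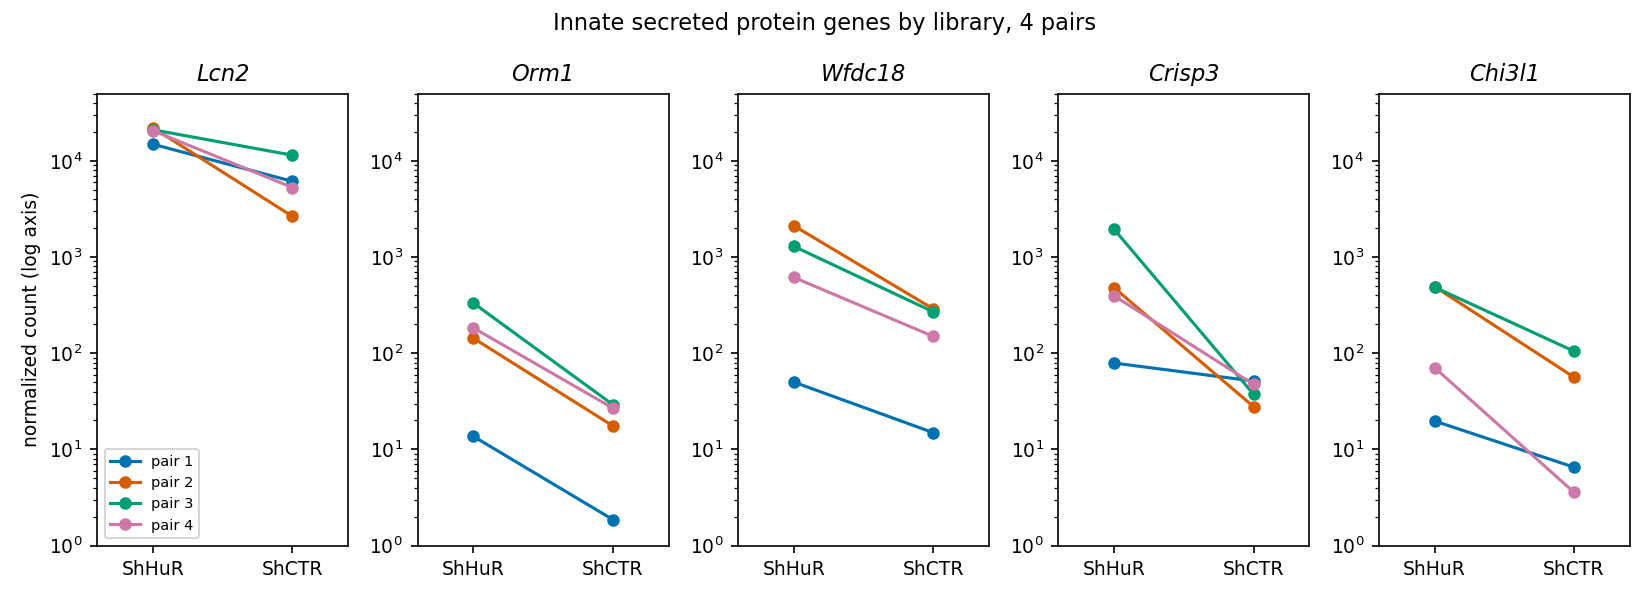
Normalized counts (log axis) of the 5 genes in the ShHuR and ShCTR libraries, with 1 point per library and a line joining the libraries that share a replicate number. Every line is higher at ShHuR, the ShHuR values of Lcn2 lie between 14862 and 22005, and the ShCTR values of Crisp3 lie between 27.8 and 51.4.

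The genes therefore differed in which group was the more variable. The coefficient of variation of Lcn2 was 16.4% in ShHuR and 57.9% in ShCTR, and that of Crisp3 was 115% in ShHuR and 25.8% in ShCTR. For Orm1 it was 78.0% and 65.7%, for Wfdc18 87.5% and 70.0%, and for Chi3l1 96.2% and 112% (ShHuR and ShCTR, n = 4 each). Together the 5 genes took 0.145%, 0.311%, 0.32% and 0.281% of the reads of ShHuR replicates 1 to 4, against 0.0589%, 0.034%, 0.126% and 0.0674% of those of ShCTR replicates 1 to 4. Between 83.8% and 98.9% of those reads belonged to Lcn2, so this share mostly follows Lcn2.

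The order of the pairs was not shared either. Pair 1 had the smallest difference in 4 of the 5 genes and pair 3 in Lcn2. The largest difference was in pair 2 for Lcn2 and Wfdc18, in pair 3 for Orm1 and Crisp3 and in pair 4 for Chi3l1. The median log2 difference of the 5 genes was 1.46, 3.06, 2.26 and 2.72 in pairs 1 to 4, beside medians of all tested genes of 0.04, 0.03, 0.00 and −0.02. The level of Elavl1 left in ShHuR was 11.5%, 0.867%, 1.43% and 7.7% of ShCTR in the same pairs. A log2 difference of at least 1 was reached by 4, 5, 4 and 5 of the genes in pairs 1 to 4, and by 1.76%, 4.84%, 7.24% and 4.77% of all tested genes. These shares describe the choice of the genes and support nothing about it. In the authors' deposited table the log2 fold changes are 2.65 for Orm1, 2.19 for Chi3l1, 2.11 for Wfdc18, 1.30 for Crisp3 and 1.16 for Lcn2. The measures are not alike: Elavl1 is at −1.82 in the deposited values and at −4.84 here, so the order of the genes need not match. In the deposited values Crisp3 stands below Orm1, Chi3l1 and Wfdc18, whereas its mean difference computed here is the largest of the 5. That place rests on pair 3: without it Crisp3 was at 2.57, below Chi3l1 at 2.85 and Orm1 at 2.68.

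**Figure D2:**
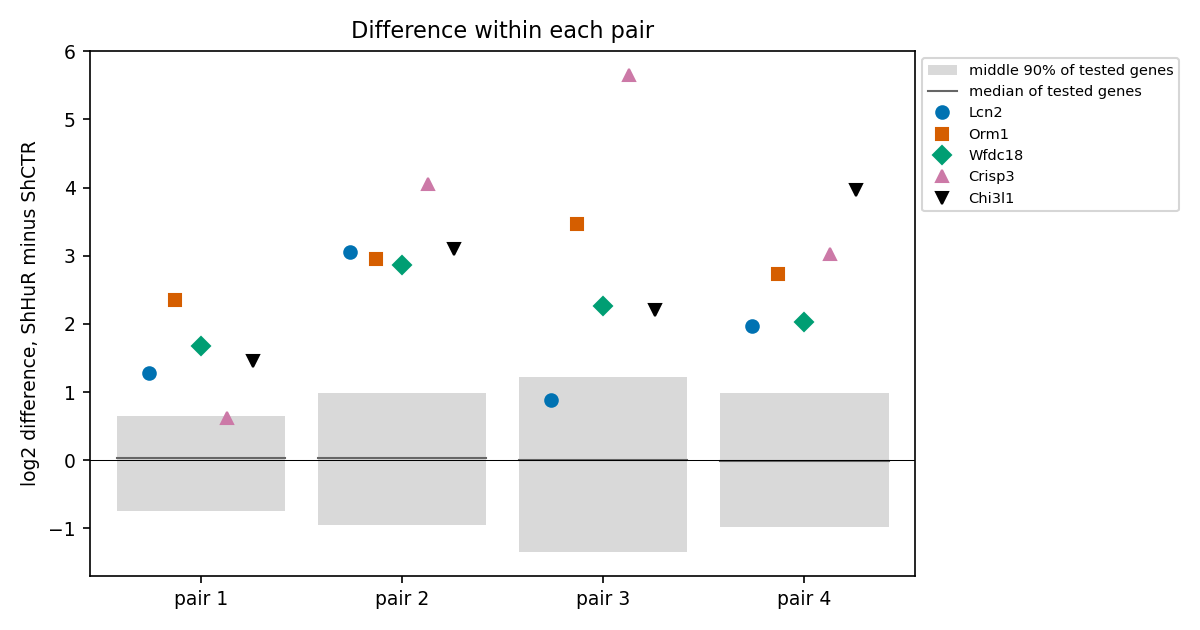
Log2 difference, ShHuR minus ShCTR, of the 5 genes in each pair (symbols), over the range from the 5th to the 95th percentile of the 11847 tested genes (grey). Crisp3 lies inside the grey range in pair 1, at 0.61, and far above it in pair 3, at 5.66, and Lcn2 lies inside it in pair 3, at 0.88.

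The profiles over the 8 libraries were compared by the root mean square (RMS) difference of log2 values after each gene's mean was taken off. This measure includes the difference between ShHuR and ShCTR for which the 5 genes were picked, so that genes higher in ShHuR come near them in part by construction. Orm1 and Wfdc18 were the most alike of the 5, at 0.84, where Wfdc18 ranked 17th among 11846 genes by likeness to Orm1 and Orm1 ranked 27th by likeness to Wfdc18. The RMS difference of Lcn2 was 1.37 from Crisp3, 1.60 from Orm1 and 1.90 from Wfdc18 and from Chi3l1, and that of Crisp3 was 1.70 from Wfdc18 and 1.72 from Chi3l1. By likeness to Lcn2, Crisp3 ranked 9391st, Orm1 10805th, Wfdc18 11448th and Chi3l1 11449th among 11846 genes, so most tested genes were more like Lcn2. In the other direction Lcn2 ranked 100th by likeness to Crisp3, 770th to Chi3l1, 845th to Orm1 and 2522nd to Wfdc18. The genes most like Lcn2 were Mdfi, a repressor of myogenic factors, at 0.34, the transporter gene Slc47a2 at 0.37, and Hpx, which encodes the haem carrier hemopexin, another acute-phase protein, at 0.46. Those most like Orm1 were Lca5l at 0.55, the cytokine-induced STAT inhibitor gene Cish at 0.64 and Prkg2, a cGMP-dependent kinase gene, at 0.64. Those most like Wfdc18 were a locus without a gene name at 0.60, the keratin gene Krt7 at 0.62 and the lipid phosphatase gene Plpp3 at 0.65. Crisp3 was most like Mmp13, a collagenase gene, at 0.63, Hmga2, an architectural chromatin protein gene, at 0.66 and Scin, an actin-severing protein gene, at 0.74. Chi3l1 was most like Ankrd33b at 0.70, the receptor phosphatase gene Ptprz1 at 0.74 and the sorting receptor gene Sorcs1 at 0.75. All 15 had a positive mean log2 difference. Some had low counts: Mdfi averaged 26.9 in ShHuR and 7.82 in ShCTR and Slc47a2 25.6 and 5.34, far below Lcn2. In ShCTR Prkg2 averaged 4.19 and Hmga2 5.74. Their log2 values rest on few reads and are compressed by the added 1, so their likeness is uncertain. Libraries of 1 pair deviated together, so the 8 points of a profile are not independent.

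Promoter sequence was available from RefSeq (GRCr8) for all 5 genes. Lcn2, Orm1 and Crisp3 are shown because their 250 bases before the RefSeq start hold matches to motifs of the factors known to drive acute-phase genes, C/EBP and NF-kB. Capitals mark matches to TTGCNNAA (C/EBP), GGG and CC 5 bases apart (a wide NF-kB frame), TGANTCA (AP-1), each on either strand, and TATAAA on the strand of the gene; overlapping matches run together.
Lcn2, chr3:36081781-36082030, minus strand: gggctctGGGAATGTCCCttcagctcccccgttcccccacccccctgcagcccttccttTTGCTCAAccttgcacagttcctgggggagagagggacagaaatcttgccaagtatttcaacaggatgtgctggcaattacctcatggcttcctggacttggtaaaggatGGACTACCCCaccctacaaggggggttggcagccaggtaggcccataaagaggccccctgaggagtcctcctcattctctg
Orm1, chr5:81788259-81788508, plus strand: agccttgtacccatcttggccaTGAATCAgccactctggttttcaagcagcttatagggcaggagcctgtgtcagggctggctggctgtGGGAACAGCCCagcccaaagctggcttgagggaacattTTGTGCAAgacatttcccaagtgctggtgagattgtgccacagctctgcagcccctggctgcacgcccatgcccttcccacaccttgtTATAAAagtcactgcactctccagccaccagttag
Crisp3, chr9:27928341-27928590, plus strand: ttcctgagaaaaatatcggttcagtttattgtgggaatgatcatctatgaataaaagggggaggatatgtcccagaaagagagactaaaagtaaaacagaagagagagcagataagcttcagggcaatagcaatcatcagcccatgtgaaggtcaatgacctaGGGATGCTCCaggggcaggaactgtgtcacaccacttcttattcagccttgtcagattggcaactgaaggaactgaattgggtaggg

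The C/EBP letters stood in Lcn2 at −191 to −184 and in Orm1 at −123 to −116, counted from the first transcribed base, with −1 next to it. They occur in 9.22% of the 33469 promoters of the same length and in 7.16% of the 9717 that belong to tested genes. The wide NF-kB frame was found in Lcn2, Orm1 and Crisp3, but 42.3% of all promoters and 61.1% of those of tested genes hold it. The stricter NF-kB consensus, which is part of that frame, was found in Lcn2 and Crisp3 and in 6.33% of all promoters (8.58% of those of tested genes). TATAAA stood in Orm1 and Wfdc18 and in 8.06% of all promoters (3.7% of those of tested genes), and TGANTCA in Orm1 and in 6.34% (4.41%). The STAT letters TTCNNNGAA and the hypoxia element core ACGTG, present in 7.67% and 16.6% of all promoters (5.66% and 21.9% of those of tested genes), were in none of the 5 windows. No match was found in Chi3l1. A match describes these letters only.

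The other genes of the response were tested across all 11847 genes. In limma with replicate number as a block (blocked limma), calls were made for 7.16% of the tested genes as higher and 8.05% as lower at an adjusted p of 0.05. Limma without the block made 0 calls, although 978 genes had p below 0.05 before adjustment, and without the block edgeR made 0 calls and DESeq2 248. Blocked limma without pair 4 also made 0 calls, with 2937 genes at p below 0.05 before adjustment, so every call named for the lists is lost without that pair. The list counts without pairs 1, 2 and 3 in turn are given beside each list that had a call.

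Among 13 other acute-phase genes 4 were higher and 0 lower in ShHuR, with a median log2 fold change of 0.57. Without pairs 1, 2 and 3 the counts were 8 higher and 1 lower, 0 and 0, and 1 and 0. Hpx was at 19.8, 46.5, 68.9 and 46.6 normalized counts in ShHuR replicates 1 to 4, against 12.1, 8.1, 16.4 and 15.2 in ShCTR replicates 1 to 4, and its groups did not overlap. It rose by 1.65 (SE 0.32; blocked limma, adjusted p = 0.0206). Ptx3, a pentraxin that opsonises microbes, rose by 1.70 (SE 0.37), although ShHuR replicate 1 was at 9.12 against 298.9 to 328.0 in the other ShHuR libraries. Cfb, complement factor B, rose by 1.53 (SE 0.39), with 0.10 in pair 1 and 2.91 in pair 2, and Il1rn, the interleukin 1 receptor antagonist gene, was the other call, at 1.53 (SE 0.35). The symbol Cfb stands on 2 rows, and only the first was read here. In blocked limma the adjusted p was 0.0275 for Ptx3, 0.0382 for Cfb and 0.0291 for Il1rn. C3, the central complement component, was at 23653 ± 13458 in ShHuR and 15139 ± 6851 in ShCTR (SD, n = 4 each; log2 0.57, SE 0.19; blocked limma, adjusted p = 0.0794). Hp, haptoglobin, differed by −0.06 (SE 0.39; blocked limma, adjusted p = 0.92). Of the negative acute-phase proteins Tf alone could be tested, at −0.19 (SE 0.10; blocked limma, adjusted p = 0.2).

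Of 10 antimicrobial and WAP-domain genes 2 were higher and 0 lower, with a median of 0.05. Without pairs 1, 2 and 3 the counts were 2 higher and 1 lower, 0 and 0, and 1 and 0. Slpi, a WAP-domain inhibitor of neutrophil proteases, was at 1261, 11322, 11857 and 4091 normalized counts in ShHuR replicates 1 to 4, against 1156, 1554, 3145 and 1170 in ShCTR replicates 1 to 4. It rose by 1.68 (SE 0.37; blocked limma, adjusted p = 0.0275), with only 0.13 in pair 1. The other call was Ptx3, which belongs to both lists. The WAP genes Wfdc1 and Wfdc2 did not pass, at −1.18 (SE 0.36) and −0.19 (SE 0.27). Wfdc21, chosen after its values were seen, reached 10 in only 3 libraries and was not tested: it was at 0, 32.3, 68.9 and 61.8 normalized counts in ShHuR replicates 1 to 4, against 0, 2.2, 6.4 and 0 in ShCTR replicates 1 to 4.

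In the CAP superfamily, the family of Crisp3, 2 of 4 tested genes were higher and 0 lower. Without pair 2 the count was 1 and 0, and without pair 1 or pair 3 it was again 2 and 0. Glipr1 was at 346.4, 660.5, 567.2 and 517.5 normalized counts in ShHuR replicates 1 to 4, against 153.2, 153.0, 206.4 and 175.6 in ShCTR replicates 1 to 4. The groups did not overlap and the log2 value was 1.57 (SE 0.16; blocked limma, adjusted p = 0.00517), with 1.17 to 2.10 over the pairs. Glipr2 rose by 1.00 (SE 0.14; blocked limma, adjusted p = 0.0115), and Crispld2 and Pi16 had log2 values of 0.13 and −0.10 (SE 0.34 and 0.25). Of 4 lipocalins and fatty acid binding proteins 0 passed in limma with the block. Without pair 1 the count was 1 higher, and edgeR and DESeq2 with the block also called 1 higher. Of the chitinase family 1 gene could be tested, Ctbs, a lysosomal chitobiase, which fell by 0.85 (SE 0.15; blocked limma, adjusted p = 0.0158). It did not pass without pair 2.

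Among 11 receptors and binding partners of these proteins 1 was higher and 2 were lower. Without pairs 1, 2 and 3 the counts were 4 higher and 4 lower, 0 and 0, and 1 and 0, and DESeq2 with the block called 4 higher and 3 lower. Slc22a17, a receptor for lipocalin 2, was at 139.8, 107.1, 109.7 and 44.6 normalized counts in ShHuR replicates 1 to 4, against 198.0, 178.7, 205.4 and 79.8 in ShCTR replicates 1 to 4. It fell by 0.74 (SE 0.13; blocked limma, adjusted p = 0.0183), with −0.50 to −0.90 over the pairs, while the groups overlapped through pair 4. Lrp2, megalin, which also takes up lipocalin 2, had a log2 value of −1.02 (SE 0.34; blocked limma, adjusted p = 0.0812) at 9.43 ± 5.85 in ShHuR and 17.9 ± 4.39 in ShCTR (SD, n = 4 each). Mmp9, a gelatinase that human lipocalin 2 is known to bind, was at 123.1, 2014, 7844 and 3415 normalized counts in ShHuR replicates 1 to 4, against 64.4, 38.8, 75.8 and 98.6 in ShCTR replicates 1 to 4. Its pairs, at 0.92, 5.66, 6.67 and 5.10, ran lowest in pair 1 and highest in pair 3, as did those of Orm1 and Crisp3, and it rose by 4.59 (SE 0.79; blocked limma, adjusted p = 0.0163). The integrin gene Itgb5 fell by 0.87 (SE 0.23; blocked limma, adjusted p = 0.044). Il13ra2 and Tmem219, known as a receptor and co-receptor of the Chi3l1 protein, had log2 values of 1.10 (SE 0.39) and −0.72 (SE 0.21) (blocked limma, adjusted p = 0.0912 and 0.054).

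**Figure D3:**
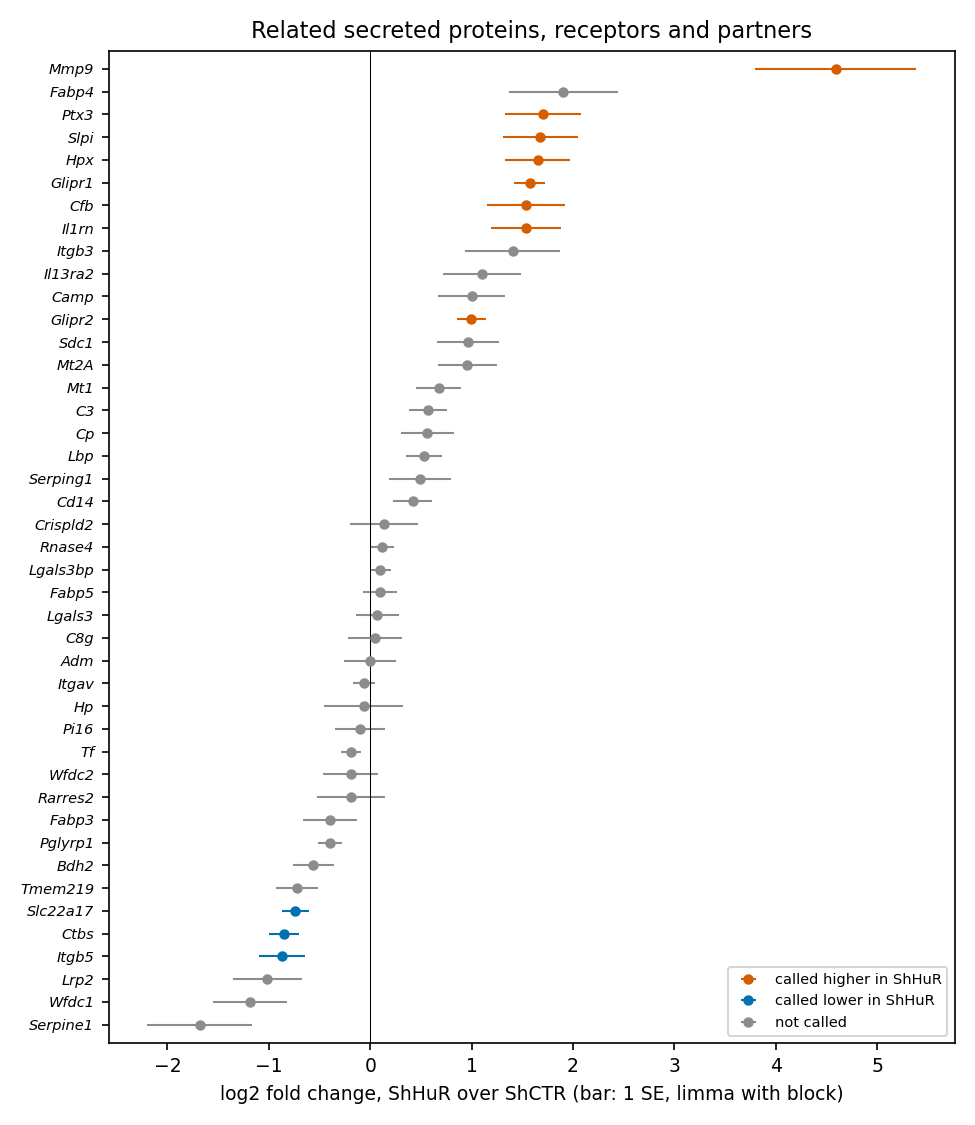
Log2 fold change, ShHuR over ShCTR, of the tested genes in the lists of acute-phase proteins, antimicrobial proteins, protein families and receptors (points) with 1 standard error from limma with the replicate block (bars). Mmp9 at 4.59, Ptx3 at 1.70 and Slpi at 1.68 are among those called higher, and Slc22a17 at −0.74, Ctbs at −0.85 and Itgb5 at −0.87 are those called lower.

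The next list held 38 cytokine, receptor, signalling and transcription factor genes of the pathways known to induce acute-phase genes, with feedback inhibitors included. Of these 14 were higher and 0 lower, with a median of 0.47. Without pairs 1, 2 and 3 the counts were 20 higher and 2 lower, 0 and 0, and 5 and 0. The 14 include the inhibitor genes Nfkbia, Socs3 and Irak3, at 0.74 (SE 0.14), 0.64 (SE 0.16) and 0.79 (SE 0.14) (blocked limma, adjusted p = 0.0194, 0.0395 and 0.0173). Nfkbiz, the nuclear IkB protein that the mouse Lcn2 gene is known to need, was at 387.5, 3631, 4163 and 5998 normalized counts in ShHuR replicates 1 to 4, against 275.5, 1399, 2559 and 2746 in ShCTR replicates 1 to 4. It rose by 0.92 (SE 0.16; blocked limma, adjusted p = 0.0158) and was higher in 4 of 4 pairs, and both libraries of pair 1 were the lowest of their groups. Il11, a cytokine that acts through gp130, was at 209.7, 3180, 1963 and 1805 normalized counts in ShHuR replicates 1 to 4, against 198.9, 175.7, 263.9 and 184.6 in ShCTR replicates 1 to 4. It rose by 2.60 (SE 0.56; blocked limma, adjusted p = 0.0266), with 0.08 in pair 1. Il1a rose by 1.82 (SE 0.51; blocked limma, adjusted p = 0.0494, and 0.0545 under TMM scaling), with −0.39 in pair 1. Il6r, the receptor gene for Il6, rose by 1.25 (SE 0.25; blocked limma, adjusted p = 0.0224). Il6 itself was at 24.3, 1592, 1622 and 779.8 normalized counts in ShHuR replicates 1 to 4, against 19.6, 386.6, 1917 and 191.8 in ShCTR replicates 1 to 4. It was higher in 3 pairs and lower in pair 3, with a log2 value of 1.03 (SE 0.38; blocked limma, adjusted p = 0.102). The transcription factor genes Stat3, Cebpb and Cebpd did not pass, at 0.42 (SE 0.14), 0.28 (SE 0.13) and 0.16 (SE 0.17) (blocked limma, adjusted p = 0.0871, 0.159 and 0.539).

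**Figure D4:**
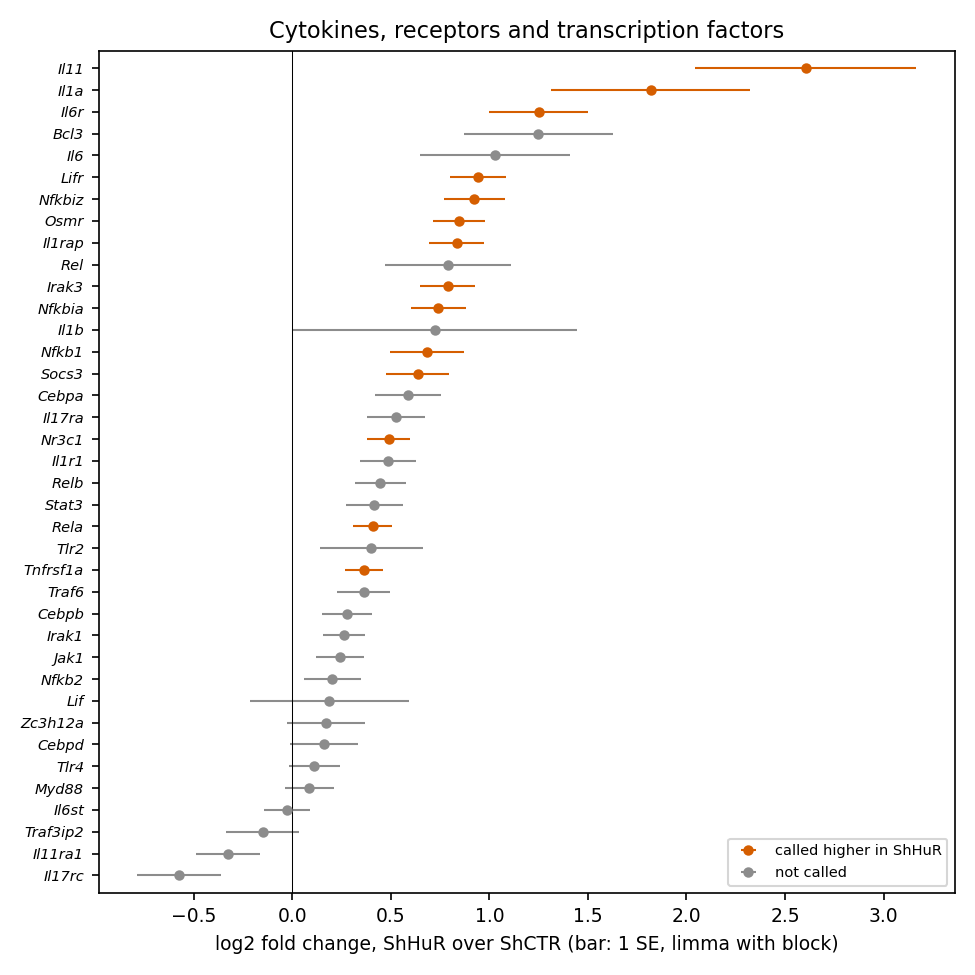
Log2 fold change, ShHuR over ShCTR, of 38 cytokine, receptor, signalling and transcription factor genes (points) with 1 standard error from limma with the replicate block (bars). Il11 at 2.60 is the highest, 14 genes are called higher and 0 lower, and Cebpd at 0.16 and Cebpb at 0.28 are not called.

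Several of the 5 proteins are also products of neutrophils, epithelia or liver, and markers of these cells were read beside them. Of 23 neutrophil markers 3 were in the table, and their summed level was 50.5 to 202.5 normalized counts in ShHuR and 15.4 to 52.0 in ShCTR. Of these Camp, a cathelicidin gene, could be tested and did not pass, at a log2 value of 1.00 (SE 0.33; blocked limma, adjusted p = 0.0794), with higher values in pairs 1, 2 and 4. It was called higher in DESeq2 with the block (adjusted p = 0.0463) and in blocked limma without pair 3 (adjusted p = 0.0421). Itgb2 did not exceed 30.3 and Csf3r 14.1 in any library, and Mpo, Elane, Ltf, S100a8 and S100a9 are not analysed here. Of 16 macrophage markers 4 were in the table, summing to 565.1 to 1299 in ShHuR and 334.6 to 995.6 in ShCTR, and 0 of 3 tested passed in limma with the block. Of 28 epithelial markers 8 were in the table, summing to 630.6 to 1449 in ShHuR and 127.4 to 271.5 in ShCTR. Most of that gap was Tgm1: without it, as computed after its values were seen, the sums were 192.4 to 310.0 in ShHuR and 113.5 to 210.6 in ShCTR and overlapped. Krt8 had a log2 value of −0.20 (SE 0.25; blocked limma, adjusted p = 0.615). There 2 of 5 tested were higher, Tgm1, a transglutaminase of keratinocytes, at 3.92 (SE 0.36) and Krt7 at 1.49 (SE 0.28) (blocked limma, adjusted p = 0.00517 and 0.0192). Without pair 2 or pair 3 the count was 1. Epcam, Cdh1 and Krt14 are not analysed here. Of 13 hepatocyte markers 2 were in the table, Tf and Asgr1, summing to 517.1 to 857.0 in ShHuR and 538.2 to 934.0 in ShCTR, and 0 of 2 passed in limma with the block. Of 11 tested nucleus pulposus markers 3 were lower, Acan, Sox6 and Car12, and 0 higher, with summed levels of 1232 to 2161 in ShHuR and 1438 to 1912 in ShCTR. Of 15 fibroblast and annulus markers 6 were lower and 1 higher, with summed levels of 60938 to 186095 in ShHuR and 82119 to 226357 in ShCTR. Dcn, not called at 0.59 (SE 0.46), alone reached 80136 in ShHuR replicate 1. The furthest down were Col1a1 at −2.35 (SE 0.37), Col3a1 at −2.01 (SE 0.22) and Thy1 at −0.90 (SE 0.18) (blocked limma, adjusted p = 0.0127, 0.00588 and 0.0233). Twist2 was the gene called higher, at 1.45 (SE 0.22; blocked limma, adjusted p = 0.0126). Without pairs 1, 2 and 3 the nucleus pulposus counts were 2 higher and 3 lower, 0 and 1, and 0 and 2, and the fibroblast counts were 2 and 7, 0 and 1, and 1 and 3. Acan, the gene of the main disc proteoglycan, was the furthest down of the nucleus pulposus markers, at −1.69 (SE 0.21; blocked limma, adjusted p = 0.0085). The part of any such cell type in the levels of the 5 genes was not tested.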

How the data were processed

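RNA from 8 libraries (4 ShHuR, 4 ShCTR) was sequenced after ribosomal RNA depletion with a stranded kit, per the labels' protocols. The sources used here name no aligner, counter, build or strand setting, so overlapping and antisense genes are uncertain. The deposited values are a signal, gene counts divided by 1 factor per library, as the file headers (normalized) and the values show. In each column 100% of values were whole multiples of a step, to within 0.01 read, which gave the reads. The log2 fold change and adjusted p-value columns are the authors' own, per the file headers, whose names are those that DESeq2 writes. Another 24 per-library columns in the other sheets were not used. Identifiers come from the sheet of called genes: 2114 rows matched by value shared the symbol and 3 the identifier of the sheet of all genes. Another 21 symbols stand as dates in the table, and those rows were not named.

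Rows with at least 10 in at least 4 libraries were tested as log2(value + 1) with limma 3.58.1 (R 4.3.3, mean-variance trend; two-sided p, adjusted over all rows by Benjamini-Hochberg, threshold 0.05). The design had no replicate block. Pairing was read from the deviations from the group means, since the labels leave the meaning of the number unsaid. Same-numbered libraries correlated at 0.87, 0.78, 0.63 and 0.77 across genes. ShHuR replicate 2 also correlated with ShCTR replicate 3 at 0.62, and ShHuR replicate 3 with ShCTR replicate 2 at 0.43. The other differently numbered libraries correlated negatively. Pairs 2 and 3 are thus told apart less clearly than pairs 1 and 4, and the block rests on the replicate numbers there. Because same-numbered libraries deviated together, values of single genes are from the fit with the block. Its fold change is the mean of the 4 pair differences. No 2 libraries of a group agreed within sampling noise (chi-square per degree of freedom 43.5 to 188.5), and since nothing says that they came from separate animals, p-values measure the spread between these samples. Intervals cover counting error only. EdgeR 4.0.16 and DESeq2 1.42.0 were run on the recovered reads. Limma with and without the block, and edgeR and DESeq2 with the block, were tried on simulated data, and the other fits were not. The 5 genes and the 14 lists were chosen with earlier results of these data known. Named are the 5 genes, Elavl1, 15 genes by name (1 of them, Serpina3n, not analysed here), up to 3 called genes per list and direction, and the 3 genes most like each of the 5. Outside that rule, chosen after their values were seen, are Il1rn, Wfdc1, Wfdc2, Wfdc21, Crispld2, Pi16, Nfkbia, Socs3, Irak3, Camp, Itgb2, Csf3r, Tf, Asgr1, Krt8, Foxf1, Sox9, Col2a1 and Dcn.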

Additional observations from a re-analysis of the deposited data

Results flagged for a closer look

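In 5 of 76 groups of 4 libraries, over the named genes, 1 library lay far from the other 3 on the log2 scale; chance alone gives about 1 in 20. In ShHuR replicate 1, Ptx3 was at 9.12 normalized counts, against 298.9 to 328.0 in the other ShHuR libraries, Il13ra2 at 12.2 against 299.9 to 351.4, and Il6r at 74.5 against 175.5 to 185.8. The partner library ShCTR replicate 1 was at 5.60 for Ptx3 and 12.1 for Il13ra2. In ShCTR replicate 4, Slc22a17 was at 79.8 against 178.7 to 205.4 in the other ShCTR libraries. In ShCTR replicate 2, Tgm1 was at 13.9 against 60.3 to 64.4. Among the 5 secreted protein genes, 0 stood apart in this way in either group.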

How the results depend on the processing

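Over all genes limma without the block called 0, and with the replicate block 1802; edgeR with the block called 1845, DESeq2 without it 248 and with it 2053. Choices added after seeing the data kept the block: a pseudocount of 0.5 gave 1787, of 5 gave 1831, no filter 1770 and TMM scaling 1737. With the replicate block, leaving out pairs 1 to 4 in turn gave 2831, 62, 523 and 0, and without the block 315, 0, 0 and 0. Among the 114 tested genes of the lists the count was 0 without the block and 37 with it, 37 in edgeR with the block, 10 in DESeq2 and 52 with the block, then 36, 38, 37 and 34 in the same order of added choices, and 61, 4, 18 and 0 with the block without pairs 1 to 4 in turn, or 10, 0, 0 and 0 without the block. The replicate block leaves the mean differences of the 5 genes as they are, Lcn2 at 1.80 among them. Those stayed above 0 under both pseudocounts, TMM, scaling to total reads and without each pair, from 1.37 to 2.10 for Lcn2, 2.39 to 3.05 for Orm1, 1.99 to 2.38 for Wfdc18, 2.57 to 4.25 for Crisp3 and 2.26 to 3.09 for Chi3l1. The move past the spread between pairs was that of Orm1 to 2.39 after scaling to total reads, where a pseudocount of 1 weighs more against its low values; that scaling moved the median of all genes by 0.11. Depth limits Orm1 and Chi3l1 most, with 2 and 4 reads in their lowest libraries.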
